A study of Homo sapiens with 6 samples.

Results

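Expression of 9 genes of sterol synthesis and esterification was compared between SKBR3 cells in which NDRG1 was silenced and control SKBR3 cells. SKBR3 is an established human breast cancer line with amplified HER2. The genes were chosen by name as targets of the transcription factor SREBP2, sterol sensors and genes of cholesterol transfer and esterification, and they are SREBF2, INSIG1, ACAT2, HMGCS1, IDI1, SQLE, MSMO1, STARD4 and SOAT1. All 9 were measured, each by 1 probe, among 14812 genes given a symbol in the probe table. The shNDRG1 group comprised 3 arrays of cultures that express the short hairpin RNA G8 against NDRG1, and the shGFP control group comprised 3 arrays of cultures that express a hairpin against green fluorescent protein. The hairpin names in the labels carry a different suffix in each group, and its meaning is not stated. The methods speak of a vector control and of independent biological replicates. Both groups carried stable lentiviral hairpins, were grown in DMEM with serum without the iron chelator DFO and were harvested while growing in log phase, and 1 cell line and 1 NDRG1 hairpin limit the groups as a model. The labels number 3 batches with 1 array of each group in every batch.

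Cholesterol is built from acetyl-CoA through mevalonate and squalene, and its synthesis is set by the sterol content of the endoplasmic reticulum. When sterols are plentiful, INSIG proteins hold the SREBP2 precursor and its escort SCAP in the endoplasmic reticulum, and when sterols are scarce the complex moves to the Golgi, where SREBP2 is cut and released to activate the genes of synthesis and uptake. Surplus cholesterol is esterified by sterol O-acyltransferases and stored in lipid droplets, the organelles in which cells keep neutral lipids.

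Upstream stretches are shown for 5 genes picked by their role or by their differences. SREBF2 encodes SREBP2 itself. INSIG1, MSMO1 and SOAT1 were above the control in every batch, and STARD4 was below it in every batch. The stretches are given as a description, and a link between sequence and expression was not tested. They are the 250 bases before the RefSeq start in assembly GRCh38.p14, at chr22:41832855-41833104 on the plus strand for SREBF2, chr7:155297628-155297877 on the plus strand for INSIG1, chr4:165327419-165327668 on the plus strand for MSMO1, chr1:179293547-179293796 on the plus strand for SOAT1 and chr5:111512536-111512785 on the minus strand for STARD4. Capitals mark matches, on either strand, to the sterol regulatory element core TCACNCCA, the CCAAT box CCAAT, the GC box GGGCGG and the E-box CACGTG.
SREBF2: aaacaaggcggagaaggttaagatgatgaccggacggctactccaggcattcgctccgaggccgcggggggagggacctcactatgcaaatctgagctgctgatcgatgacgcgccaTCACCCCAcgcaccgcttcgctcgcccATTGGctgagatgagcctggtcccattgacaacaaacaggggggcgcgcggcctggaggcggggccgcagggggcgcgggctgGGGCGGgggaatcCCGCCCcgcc
INSIG1: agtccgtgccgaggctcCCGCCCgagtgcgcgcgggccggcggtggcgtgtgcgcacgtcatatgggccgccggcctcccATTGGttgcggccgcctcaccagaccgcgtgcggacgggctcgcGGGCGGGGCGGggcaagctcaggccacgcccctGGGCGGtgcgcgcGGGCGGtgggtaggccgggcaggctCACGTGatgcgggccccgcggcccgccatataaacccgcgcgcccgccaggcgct
MSMO1: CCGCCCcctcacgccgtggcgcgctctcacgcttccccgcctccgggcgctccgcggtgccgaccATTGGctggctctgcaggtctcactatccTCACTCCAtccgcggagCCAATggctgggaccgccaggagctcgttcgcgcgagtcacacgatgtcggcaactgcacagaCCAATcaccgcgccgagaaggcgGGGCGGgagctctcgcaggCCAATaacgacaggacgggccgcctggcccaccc
SOAT1: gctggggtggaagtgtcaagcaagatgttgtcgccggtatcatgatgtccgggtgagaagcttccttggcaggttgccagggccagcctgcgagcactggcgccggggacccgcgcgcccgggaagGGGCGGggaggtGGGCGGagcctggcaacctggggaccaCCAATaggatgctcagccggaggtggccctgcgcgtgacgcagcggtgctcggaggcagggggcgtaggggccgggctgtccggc
STARD4: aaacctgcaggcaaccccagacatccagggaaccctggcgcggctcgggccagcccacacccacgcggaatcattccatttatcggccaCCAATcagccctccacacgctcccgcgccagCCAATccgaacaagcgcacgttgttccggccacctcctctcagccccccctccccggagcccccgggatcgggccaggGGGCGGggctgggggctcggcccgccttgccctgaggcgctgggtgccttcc

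Upstream windows were matched for 7 of the 9 genes, with 10 windows in all since HMGCS1 and IDI1 have several starts, and none was matched for ACAT2 and SQLE. The sterol regulatory element core was found in SREBF2, as TCACCCCA from 133 to 126 bases before the start, and in MSMO1, as TCACTCCA from 156 to 149 bases before it. This core occurs in 3.20% of all 35116 windows of the same length. The SREBF2 match also fits the stricter spellings ATCACNCC, present in 1.80% of windows, and CACCCCAC, present in 2.43%, both of which overlap the core. A CCAAT box, the site of the SREBP partner NF-Y, lay in 8 of the 10 windows and at least 1 window of all 7 genes, against 32.0% of all windows. MSMO1 held 4 such boxes, a number that 0.874% of all windows reach. A GC box, which binds Sp1, lay in all 10 windows against 42.6% of all windows, and INSIG1 held 5, of which 1 pair overlaps. The 10 windows had a GC content of 66.0% to 78.4%, and the shares over all windows were not matched for it. The E-box was found in INSIG1 alone of the 7 genes, from 55 to 50 bases before the start, against 6.35% of all windows. The letters TCACNCCA are not in the windows of INSIG1, HMGCS1, IDI1, STARD4 and SOAT1, which says nothing of factor binding. A match to a motif is a description of the sequence, and no binding was measured.

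The deposited values are probe summaries from which a baseline for each probe had been subtracted, so that they keep differences between arrays but no expression level. The logarithm is taken to be of base 2, which no source states, and all values and differences below are on this log2 scale. NDRG1, the targeted gene, had values in batches 1, 2 and 3 of -0.77, -0.74 and -1.09 in shNDRG1 cells, against 0.02, 0.42 and -0.02 in shGFP control cells, a difference of -1.01 (limma, unadjusted p = 0.000906, adjusted p = 0.652). Neither NDRG1 nor any other gene passed the adjusted threshold of 0.05 with limma, and the share called was 0% without a batch block and 0% with it. At an unadjusted p under 0.05, 631 genes were counted without the block and 1399 with it. Both arrays of batch 2 stood apart on the first principal component (72% of the variance). Of 10 luminal and HER2 epithelial markers, 8 were measured and all 8 were below the control. At an unadjusted p under 0.05 in limma, 4 were lower without the block and 3 with it, against 1.57% and 3.74% of all genes. The summed values of the 8 ranged from -1.32 to -0.23 in shNDRG1 arrays and from 0.87 to 2.21 in shGFP control arrays. Of 7 mesenchymal markers 2 were measured, both below the control. Their sums ran from -0.91 to -0.09 in shNDRG1 arrays and from -0.32 to 0.78 in shGFP control arrays. At the same threshold 0 of them were lower without the block and 1 with it, against the same shares of all genes. Of 3 immune markers 1 was measured, which was above the control in all 3 batches by 0.51 on average. Its unadjusted p was under 0.05 with the block but not without it, against 5.70% and 2.69% of all genes higher in those fits. The 2 measured of 4 basal markers differed by -0.10 and 0.03. The part of the marker lists in the differences of the sterol genes was not tested. The markers cannot show whether a cell type is present, because the values keep no level. A difference in RNA per cell cannot be told apart from a difference in the share of cells that express a gene. With 3 arrays per group, the exact permutation test cannot give a p below 0.1.

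The comparison asked whether silencing of NDRG1 was accompanied by different expression of the sterol genes. None of the 9 passed the adjusted threshold in limma, and INSIG1 was the only one whose arrays did not overlap between the groups. SREBF2, which encodes the SREBP2 precursor, measured -0.03, -0.04 and -0.30 in batches 1, 2 and 3 of shNDRG1 cells, against 0.03, 0.14 and -0.36 in shGFP control cells. The groups overlapped, and the arrays of batch 3 were low in both. The difference was -0.06 (95% interval -0.44 to 0.33, limma, unadjusted p = 0.715), and the differences within batches were -0.07, -0.17 and 0.06.

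INSIG1 encodes the protein that retains SCAP and SREBP2 in the endoplasmic reticulum and is itself a target of SREBP2. In the order of batches kept throughout, its values were -0.01, 0.01 and 0.11 in shNDRG1 cells, against -0.17, -0.18 and -0.04 in shGFP control cells. All 3 shNDRG1 arrays lay above all 3 shGFP control arrays, although the gap between the nearest arrays was narrow. The mean was 0.04 ± 0.06 in shNDRG1 cells and -0.13 ± 0.08 in shGFP control cells (SD, n = 3 each). The difference was 0.17 (standard error 0.06, 95% interval 0.01 to 0.32), or 1.12-fold, with an unadjusted p of 0.0406 and an adjusted p of 0.99993 in limma, and an exact permutation p of 0.1. It was 0.16, 0.19 and 0.15 in batches 1, 2 and 3, the closest agreement between batches among the 9 genes. With the batch as a block the interval was 0.04 to 0.29 (limma, unadjusted p = 0.0219, adjusted p = 0.439). Among all 14812 genes INSIG1 had rank 506 by p without the block and rank 734 with it. Of all genes, 5.14% had shNDRG1 arrays that lay wholly above the control arrays and 3.21% had them wholly below, against 1 and 0 of the 9 sterol genes.

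**Figure D1:**
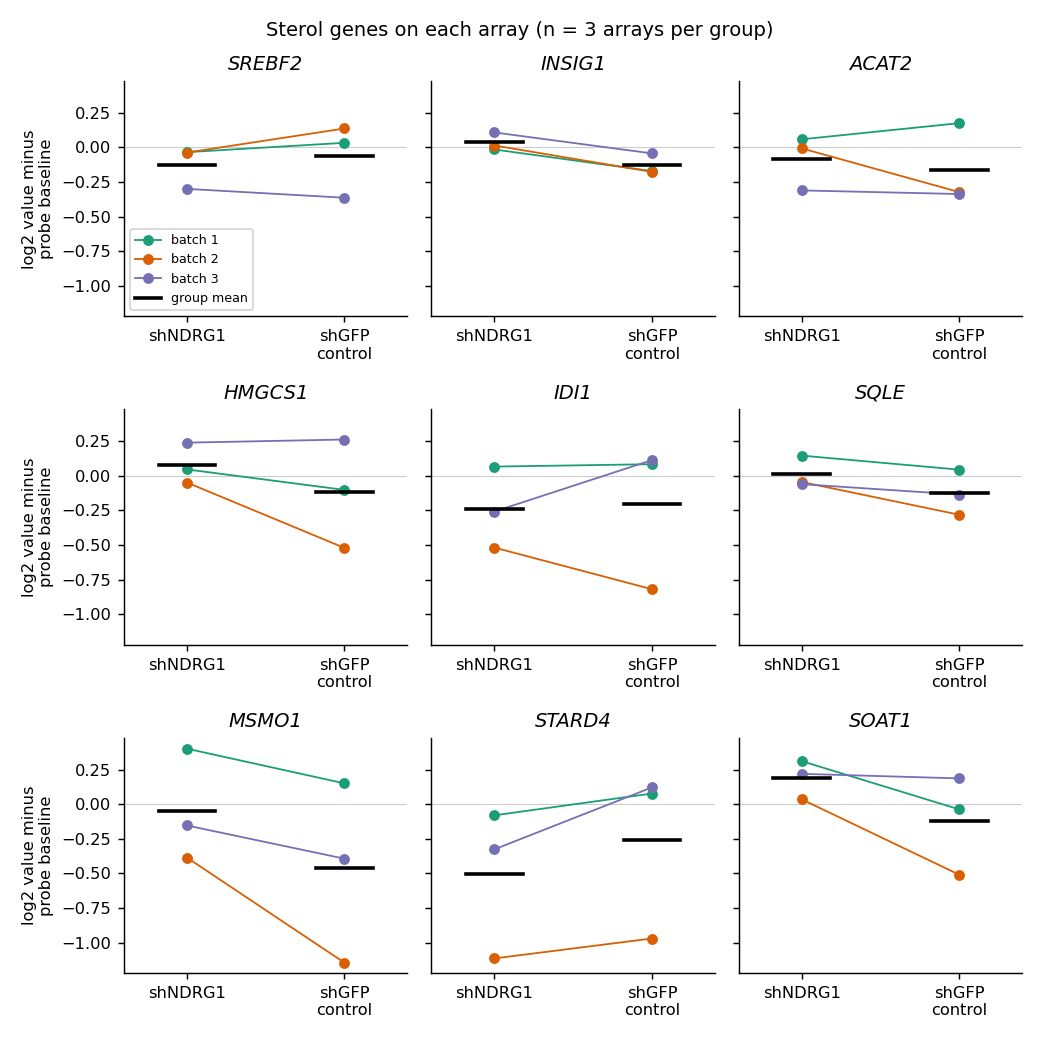
Values of the 9 sterol genes on every array, in shNDRG1 cells at the left and shGFP control cells at the right of each panel, as log2 values minus the probe baseline. Points are arrays, lines join the 2 arrays of a batch and black bars are group means (n = 3 arrays per group), with INSIG1 as the panel without overlap and batch 2 as the lowest line for HMGCS1, IDI1, MSMO1, STARD4 and SOAT1.

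For the 3 enzymes of the mevalonate arm, the interval of the difference spanned 0 in both fits. ACAT2, here the cytosolic thiolase that joins acetyl-CoA units and not the acyltransferase SOAT2 that shares the alias, was 0.06, -0.01 and -0.31 in shNDRG1 cells, against 0.18, -0.32 and -0.34 in shGFP control cells. The groups overlapped, and within batches the differences were -0.12, 0.32 and 0.03. The overall difference was 0.08 (95% interval -0.37 to 0.52, limma, unadjusted p = 0.687).

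HMGCS1, the cytosolic HMG-CoA synthase of the mevalonate pathway, was 0.05, -0.05 and 0.24 in shNDRG1 cells, against -0.10, -0.52 and 0.26 in shGFP control cells. The largest within-batch difference came from batch 2, at 0.47, compared with 0.15 in batch 1 and -0.02 in batch 3. The overall difference was 0.20 (95% interval -0.32 to 0.72, limma, unadjusted p = 0.379, or 0.137 with the batch block), and it was -0.0011 when the shGFP control array of batch 2 was left out. IDI1, the isomerase that interconverts the isoprenoid units isopentenyl and dimethylallyl diphosphate, was 0.07, -0.52 and -0.26 in shNDRG1 cells, against 0.09, -0.82 and 0.11 in shGFP control cells. Its batches pointed opposite ways, with differences of -0.02, 0.30 and -0.37, and the overall difference was -0.03 (95% interval -0.78 to 0.72, limma, unadjusted p = 0.925).

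The 2 enzymes that act after squalene were above the control in each batch. SQLE, the squalene epoxidase that adds the first oxygen to squalene, was 0.15, -0.04 and -0.06 in shNDRG1 cells, against 0.05, -0.28 and -0.13 in shGFP control cells. The groups overlapped, although every shNDRG1 array exceeded its batch partner, by 0.10, 0.24 and 0.08. The interval of the difference of 0.14 was -0.13 to 0.40 without the block (limma, unadjusted p = 0.242) and -0.02 to 0.29 with it (unadjusted p = 0.0707). Without the shGFP control array of batch 2 the SQLE difference was 0.06.

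MSMO1, the oxidase that acts in the removal of methyl groups from the sterol ring, spanned 1.55 over the 6 arrays, the widest range of the 9 genes. It was 0.40, -0.38 and -0.15 in shNDRG1 cells, against 0.15, -1.15 and -0.39 in shGFP control cells. Within batches shNDRG1 cells exceeded the control by 0.25, 0.76 and 0.24, while the order of batches 1, 3 and 2 was the same in both groups. The difference of 0.42, or 1.34-fold, had an interval of -0.52 to 1.36 without the block (limma, unadjusted p = 0.314) and of 0.08 to 0.76 with it (unadjusted p = 0.0262, adjusted p = 0.454). The size of the difference depended on single arrays: it was 0.19 when the shNDRG1 array of batch 1 was left out, 0.72 when its shGFP control partner was, and 0.08 when the shGFP control array of batch 2 was. With array weights the MSMO1 difference was 0.05 without the block and 0.36 with it. In the sequence shown above MSMO1 holds 4 CCAAT boxes and a sterol regulatory element core, and a link to its difference was not tested. SREBF2, which also holds the core, differed by -0.06.

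STARD4, a soluble protein that carries cholesterol between membranes and delivers it to the endoplasmic reticulum, was the only gene of the 9 below the control in each batch. Its values were -0.08, -1.11 and -0.32 in shNDRG1 cells, against 0.08, -0.97 and 0.12 in shGFP control cells. Both arrays of batch 2 were far below the other 4, and the groups overlapped. The differences were -0.16, -0.14 and -0.45 in batches 1, 2 and 3, with a mean of -0.25, or 1.19-fold lower. The interval was -1.26 to 0.76 without the block (limma, unadjusted p = 0.561) and -0.47 to -0.03 with it (unadjusted p = 0.0344, adjusted p = 0.482). In fits without the block, the mean was 0.05 without the shNDRG1 array of batch 2 and -0.61 without its shGFP control partner. It was -0.06 without the shGFP control array of batch 3. These fits kept the batch partner of the array left out. With batch 1, 2 or 3 left out as a whole the mean was -0.30, -0.30 and -0.15.

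SOAT1, the sterol O-acyltransferase of the endoplasmic reticulum that makes cholesteryl esters for lipid droplets, was 0.31, 0.04 and 0.22 in shNDRG1 cells, against -0.04, -0.51 and 0.19 in shGFP control cells. The groups overlapped through the control array of batch 3, which lay between shNDRG1 arrays. The within-batch differences were 0.35, 0.55 and 0.03, so batch 3 contributed little. The overall difference was 0.31, or 1.24-fold, with an interval of -0.17 to 0.79 without the block (limma, unadjusted p = 0.161) and of 0.01 to 0.61 with it (unadjusted p = 0.0464, adjusted p = 0.516). Without the shGFP control array of batch 2 the SOAT1 difference was 0.11. With array weights it was 0.18 without the block and 0.33 with it.

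**Figure D2:**
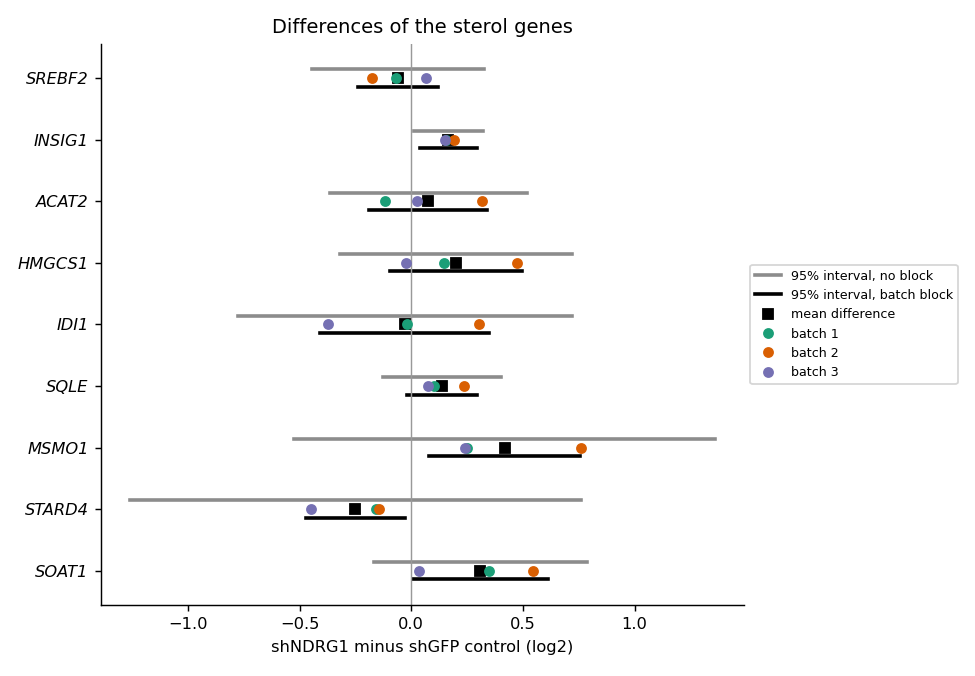
Differences of the 9 sterol genes, shNDRG1 minus shGFP control, on the log2 scale. Squares are means, coloured points are the differences within batches, and grey and black lines are 95% intervals from limma without and with the batch block, which leave out 0 in both fits for INSIG1 and only with the block for MSMO1, STARD4 and SOAT1.

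Across the 9 genes, 6 were above and 3 below the control, with a median difference of 0.14, compared with 7943 genes above, 6869 below and a median of 0.01 over all 14812 genes. The genes above the control in all 3 batches were INSIG1, SQLE, MSMO1 and SOAT1, or 4 of 9, against 17.1% of all genes. STARD4 was the 1 of 9 below it in all 3 batches, against 12.5% of all genes. At an unadjusted p under 0.05 in limma without the block, 1 of 9 was higher (INSIG1) and 0 were lower, against 2.69% and 1.57% of all genes. With the block 3 were higher (INSIG1, MSMO1 and SOAT1) and 1 was lower (STARD4), against 5.70% and 3.74% of all genes. Leaving out single arrays, INSIG1 kept an unadjusted p under 0.05 only without the shGFP control array of batch 3, when SOAT1 had one too. With the block, MSMO1 kept it without each batch in turn, STARD4 only without batch 2, SOAT1 only without batch 3, and INSIG1 lost it in all 3 cases. None of these counts came from an adjusted threshold, and 0 of the 9 genes passed one in either fit. MSMO1 and SOAT1 lay above and STARD4 below the range of -0.20 to 0.22 that holds the 5th to 95th percentile of all gene differences. In fits without the block this placement depended on single arrays. MSMO1 at 0.08 and SOAT1 at 0.11 lay within those limits without the shGFP control array of batch 2. So did STARD4 at 0.05 without the shNDRG1 array of batch 2. These fits kept the batch partner of the array left out, so differences between batches enter them. Without batch 1, 2 or 3 as a whole, MSMO1 was 0.50, 0.25 and 0.51. SOAT1 was then 0.29, 0.19 and 0.45, and STARD4 was -0.30, -0.30 and -0.15. The standard errors of the 9 genes were also wide, with a median of 0.19 compared with 0.09 over all genes without the block, and 0.10 compared with 0.07 with it.

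Most of the variation of the sterol genes lay between batches. The share of each gene's variation over the 6 arrays that lay between batches was 91.5% for STARD4, 89.8% for SREBF2, 84.4% for IDI1, 77.7% for ACAT2, 75.7% for MSMO1, 70.0% for HMGCS1, 66.8% for SQLE, 51.8% for SOAT1 and 31.5% for INSIG1, against a median of 59.4% over all genes. The share between shNDRG1 and shGFP control was highest for INSIG1, at 67.7%, followed by SOAT1 at 32.8% and SQLE at 26.3%, whereas it was 0.176% for IDI1 and 2.75% for SREBF2. The median of this share over all genes was 8.78%. In batch 2 the 9 genes averaged 0.16 below their group mean in shNDRG1 cells and 0.33 below it in shGFP control cells. The average was thus low in both groups, but not every gene was. SREBF2 lay above its group mean in both, at -0.04 against -0.12 in shNDRG1 and 0.14 against -0.06 in shGFP control cells. ACAT2 did so in shNDRG1 cells alone, at -0.01 against -0.09. The other genes lay below it in both groups. How the batches differed in culture or handling is not stated in the labels.

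**Figure D3:**
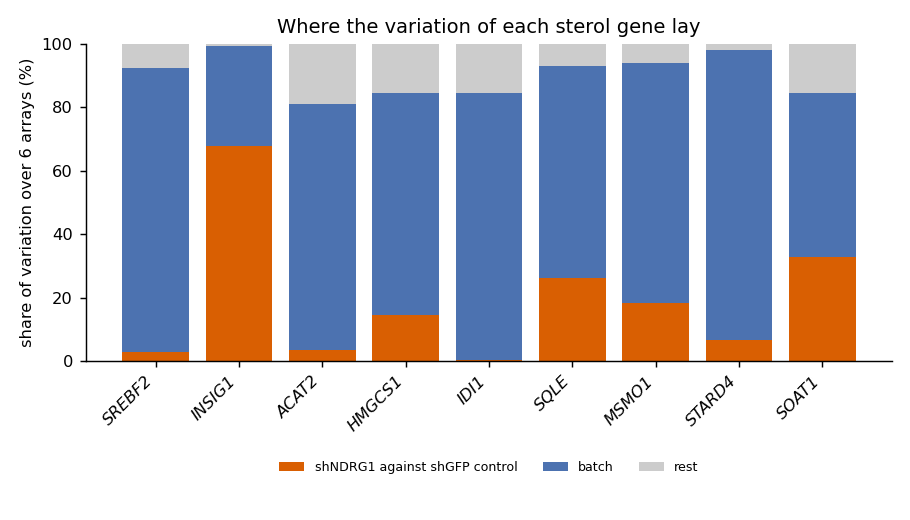
Share of the variation of each sterol gene over the 6 arrays, in percent, that lay between shNDRG1 and shGFP control (bottom), between batches (middle) and in neither (top). INSIG1 is the only bar with more variation between the groups than between batches.

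The profiles over the 6 arrays were compared by the root mean square difference between centred values. HMGCS1 and SOAT1 were the most alike pair, at 0.11, followed by ACAT2 and SQLE at 0.13, and INSIG1 was nearest to SQLE at 0.14. IDI1 and STARD4 were nearest to each other at 0.20, and STARD4 and SREBF2 were farthest apart at 0.60. The mean profile of the 9 genes ran 0.23, -0.10 and 0.04 through batches 1, 2 and 3 of shNDRG1 cells, against 0.16, -0.38 and 0.06 in shGFP control cells. Outside the 9, the genes with the profile most like this mean were ECD at 0.02 and PAIP1, MOCS2, DUSP11 and VPS35 at 0.03 each. The likeness is over 6 arrays that share batches, and it is a description only.

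The wider pathway was described with 7 lists holding 71 further genes, of which 41 were measured and 30 are unnamed in the probe table used here. Of the 41 genes, 24 lay above the control and 17 below it, with a median difference of 0.02. In limma 0 passed the adjusted threshold in either fit. Counting those with an unadjusted p under 0.05 gave 2 higher and 0 lower genes without the block, and 2 higher and 3 lower genes with it, against the shares of all genes given above. The 6 measured enzymes of the early mevalonate arm had a median of 0.09, with 5 above and 1 below the control, and the 7 measured enzymes between squalene and cholesterol had a median of -0.01, with 3 above and 4 below. None of these 13 genes had an unadjusted p under 0.05 in either fit.

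Among genes of sterol sensing and SREBP processing, 6 of 9 measured were above the control. ERLIN2, an endoplasmic reticulum protein that takes part in the breakdown of other proteins of that organelle, was 0.16, 0.03 and 0.21 in shNDRG1 cells, against -0.11, -0.11 and -0.03 in shGFP control cells. Its groups did not overlap, and the difference was 0.22 (limma, unadjusted p = 0.0157, or 0.0123 with the block). TMEM97, the sigma-2 receptor that binds the lysosomal cholesterol transporter NPC1, was -0.06, 0.18 and -0.22 in shNDRG1 cells, against 0.21, 0.34 and 0.06 in shGFP control cells, and it was below the control in each batch with a difference of -0.24 (limma, unadjusted p = 0.106, or 0.009 with the block). SCAP, the escort of SREBP2, differed by 0.02. SREBF1, which encodes the fatty acid regulator SREBP1, differed by -0.29, with -0.29, -0.64 and 0.04 in batches 1, 2 and 3.

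Among genes of cholesterol ester and free cholesterol handling, 3 of 6 measured were above and 3 below the control. NCEH1, a hydrolase of cholesteryl esters and thus opposite in reaction to SOAT1, had the largest difference of the 41 genes. It was 0.48, -0.01 and 0.28 in shNDRG1 cells, against 0.01, -0.71 and -0.28 in shGFP control cells. The groups overlapped only in that the shNDRG1 array of batch 2 lay just below the shGFP control array of batch 1, and shNDRG1 cells exceeded the control by 0.47, 0.70 and 0.56 in batches 1, 2 and 3. The difference of 0.58 had an unadjusted p of 0.042 and an adjusted p of 0.99993 in limma without the block, and an unadjusted p of 0.000625 and an adjusted p of 0.304 with it. MYLIP, a ubiquitin ligase induced by sterols, was 0.10, -0.21 and -0.02 in shNDRG1 cells, against 0.15, 0.02 and 0.22 in shGFP control cells, a difference of -0.18 (limma, unadjusted p = 0.136, or 0.0417 with the block). SOAT2, the other sterol O-acyltransferase, differed by -0.04, compared with 0.31 for SOAT1.

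Of 11 measured sterol transfer proteins, 5 were above and 6 below the control. GRAMD1A, which moves cholesterol from the plasma membrane to the endoplasmic reticulum, was -0.37, 0.04 and -0.19 in shNDRG1 cells, against -0.04, 0.49 and 0.24 in shGFP control cells. It was below the control by a similar amount in each batch, at -0.33, -0.45 and -0.43, and the difference was -0.40 (limma, unadjusted p = 0.0579 and adjusted p = 0.99993 without the block, unadjusted p = 0.00121 and adjusted p = 0.304 with it). STARD3, a relative of STARD4 on late endosomes whose gene lies beside ERBB2, differed by 0.02. DHDDS, of the dolichol branch of the mevalonate pathway, differed by 0.08.

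**Figure D4:**
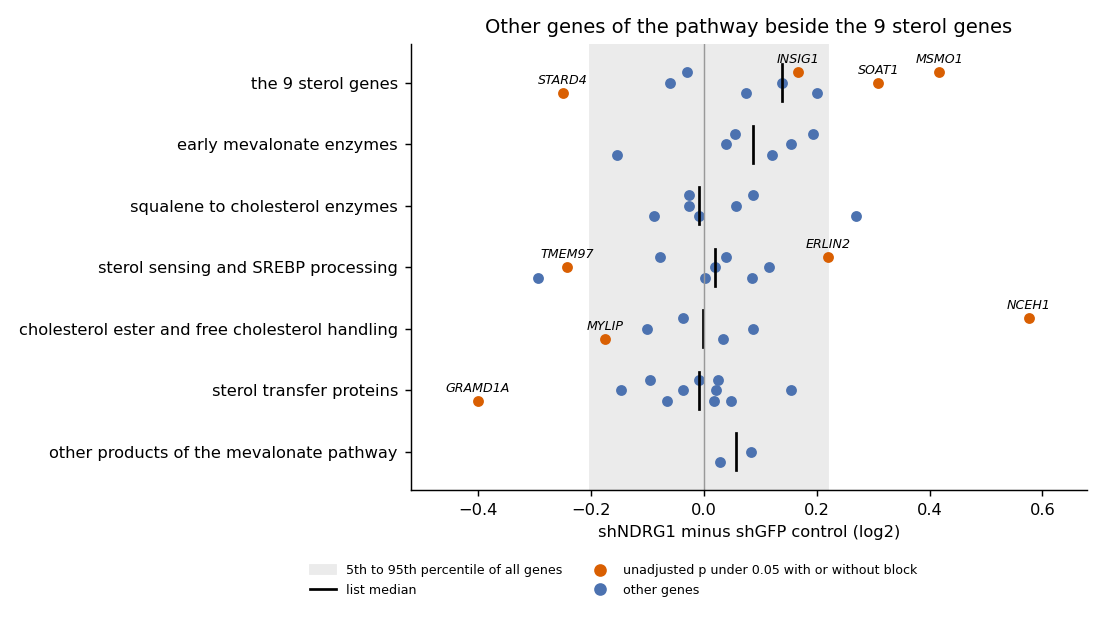
Differences of the 9 sterol genes and of the 41 other measured pathway genes, shNDRG1 minus shGFP control, on the log2 scale. Each point is a gene, black lines are list medians and the grey band is the 5th to 95th percentile of all genes; orange points, which are named, had an unadjusted p under 0.05 with or without the batch block, and NCEH1 and GRAMD1A lie farthest from 0 among the 41.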

How the data were processed

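Total RNA of SKBR3 cells was the starting material, and biotin-labeled cDNA was hybridised to Affymetrix Gene 2.0 ST arrays. Per the methods and the submitters' processing notes, the authors controlled quality in Affymetrix Expression Console, then used PLIER in GeneSpring to summarize and quantile normalize probes, and set each probe relative to a baseline. The values they deposited were taken as log2. The baseline is given in the methods as the control median, but that median was 0, within 1e-05, for 0.338% of the 44629 probes, whereas over all 6 arrays it was 0 for 26.8%. The baseline cancels in differences between arrays. At most 54 values were identical between 2 arrays. Per-sample columns left unused in the deposited table numbered 0.

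The probe table gave 1 symbol for 15835 probes, several for 0, and 28794 are unnamed here. Probes of a gene were averaged. Groups were compared over all 6 arrays with limma 3.58.1 (lmFit and eBayes) in R 4.3.3. The methods name no test for the arrays, and this main fit held no covariate. The p-values were adjusted over 14812 genes by the Benjamini-Hochberg method. Intervals are limma's 95% intervals, and the exact permutation test was two-sided. Neither the main fit nor the permutation test used the pairing of arrays by batch. Each batch number in the labels covers 1 array per group. Deviations from the group means correlated between the 2 arrays of a batch, with r over genes at 0.785 for batch 1, 0.833 for batch 2 and 0.163 for batch 3, so the batch block is given beside the result. Batches 2 and 3 share a label day. The fits were also run on simulated arrays with 200 changed genes. This checked that mean estimated differences came near the set sizes, not how many genes pass the adjusted threshold.

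Motifs were searched on both strands of RefSeq windows (GRCh38.p14) with Python 3.11.15 and pandas 2.3.3, with matplotlib 3.10.9 for the figures. In RefSeq the spans of SREBF2, INSIG1, ACAT2, IDI1, STARD4 and SOAT1 overlap other genes, among them MIR33A within SREBF2, TCP1 at ACAT2, and STARD4-AS1, and probe positions were not used here.

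The 9 genes, the lists and the tests were chosen with earlier results of these data known. Named are the 9 genes, NDRG1, the genes of each list at an unadjusted p under 0.05 with or without the block (at most 4 a list) and its first gene where measured, and the 5 genes nearest to the mean profile. SREBF1 was named in addition. The alternatives were the batch block, the label day as a block, other normalizations, variance models and probe handling, array weights, and leaving out arrays or batches. Single arrays were left out in fits without the block, with the batch partner kept.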

Additional observations from a re-analysis of the deposited data

How the results depend on the processing

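The results were recomputed under 23 alternatives, 5 of them (all with the batch block) chosen after seeing the data. None of the 9 sterol genes passed an adjusted p under 0.05 in any of them, and INSIG1, SQLE, MSMO1 and SOAT1 stayed above the control in all 23. Several of the 23 could not move a difference. Blocks, variance models and probe handling, without array weights, leave it unchanged, since batches are balanced and each sterol gene has 1 probe. With a batch left out, differences were the same with and without the block. INSIG1 lay between 0.13 and 0.21, SQLE between 0.014 and 0.22, MSMO1 between 0.048 and 0.72 and SOAT1 between 0.11 and 0.46. The number of the 9 genes at an unadjusted p under 0.05 (1 higher, 0 lower, against 2.69% and 1.57% of all genes) was not stable. With the replicate block it was 3 higher and 1 lower, against 5.70% and 3.74% of all genes. The count was the same with the block and array weights, against 6.99% and 5.28%. With the block and a trended and robust variance it was 1 higher (SOAT1) and 0 lower, against 5.85% and 3.86%. With quantile normalization again, or a trended and robust variance, it was 0 higher, against 2.81% and 2.41% of all genes. Without single arrays it ranged from 0 to 2 higher, 0 in each case except without the shGFP control array of batch 3 (INSIG1 and SOAT1). The share of all genes that were higher was 2.05% in that case and ranged from 1.59% to 3.82% without single arrays. Without both arrays of batch 1 or batch 3 the count was 0 higher, against 2.18% and 0.986% of all genes. Without batch 2 it was 0 higher and 1 lower (STARD4), against 3.07% and 3.18%. With the block, it was 1 higher (MSMO1) and 1 lower (STARD4) without batch 2, against 3.56% and 3.90% of all genes. It was 1 higher (MSMO1) without batch 1, against 3.50%. Without batch 3 it was 3 higher (HMGCS1, MSMO1 and SOAT1) and 0 lower, against 7.51% and 4.55%. Over all genes, array weights took 4 higher and 1 lower past the adjusted threshold, and the block with a trended and robust variance gave 1 lower, none of them among the 9.

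Of 207 values of single sterol genes under the alternatives, 15 had the opposite direction, none of them called. Values that alternatives repeat are counted each time. SREBF2 was 0.020 after quantile normalization again and ranged from -0.21 to 0.042 without single arrays. ACAT2 was -0.17 with array weights and no block, -0.045 without batch 2 (with or without the block), and -0.013 to 0.24 without single arrays. IDI1 was 0.14 without batch 3 (with or without the block) and -0.34 to 0.13 without single arrays. HMGCS1 ranged from -0.0011 to 0.39 without single arrays, its lowest value without the shGFP control array of batch 2, and STARD4 from -0.61 to 0.054, its highest without the shNDRG1 array of batch 2. The causes were not tested. The 3 arrays per group and the spread between batches limit the precision, and the brightness of a probe over background is unknown because the values keep no level.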
